A study of Mus musculus with 4 samples.

Results

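Lysosome and autophagy genes were followed in regulatory T cells (Treg) with and without an intact Pdpk1 gene. They comprise 35 genes chosen by symbol: 7 cathepsins, 4 other hydrolases and activators, 5 genes of the lysosomal membrane and lipid transport, 4 proton pump genes, 3 transcription factors of the TFEB family and 12 autophagy genes. All 35 were found among the 28334 rows of the deposited table, and all 35 passed the filter on low values that left 13685 tested genes. The cells were CD4+ YFP+ Treg that had been flow sorted from the spleens and peripheral lymph nodes of C57BL/6 mice given no treatment, and their poly-A RNA was sequenced. In the 2 libraries called KO the genotype was Foxp3 YFP-Cre/0 Pdpk1 FL/FL, and in the 2 libraries called WT it was Foxp3 YFP-Cre/0 Pdpk1 +/+. All 4 libraries therefore share the Foxp3 YFP-Cre allele, which places a YFP-Cre fusion under Foxp3 control, so recombination is aimed at cells that have expressed Foxp3. Age and the number of mice per library are not given in the sources used here.

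Lysosomes are acidic organelles in which proteases, glycosidases and lipid-handling proteins break down material delivered by endocytosis or by autophagy. Their acid interior is made by the V-ATPase, a proton pump with a membrane sector (V0) and a cytosolic sector that hydrolyses ATP (V1). In autophagy, the ULK1 kinase and the Beclin 1 lipid kinase complex start a membrane sheet, WIPI proteins mark it, the ATG5, ATG12 and ATG16L1 complex attaches ATG8 proteins to it, and the closed vesicle fuses with a lysosome. TFEB, TFE3 and MITF are related transcription factors that bind E-box elements near many of these genes and are held in the cytosol by mTORC1, a kinase complex downstream of PDK1, the product of Pdpk1, and AKT. Autophagy is known to be needed for stable Treg in mice.

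Markers of the labelled cell type were present in all 4 libraries. Foxp3 had deposited log2 values of 11.42 and 11.47 in KO and of 11.42 and 11.38 in WT. Cd3e had 11.26 and 11.3 in KO and 11.34 and 11.29 in WT. Treg marker levels were not all alike between the genotypes. At an adjusted p under 0.05 (limma), Il2ra (log2 difference 0.225), Ctla4 (0.245) and Tnfrsf18 (0.155) were higher in KO and Ikzf2 (-0.095) was lower. Of all tested genes, 27.1% were higher and 20.3% lower at that threshold. Pdpk1 itself was at 11.78 and 11.73 in KO and at 11.71 and 11.76 in WT, with overlapping groups (difference 0.02, 95% interval -0.065 to 0.105). The labels do not say which exons are floxed, and reads from the other exons still count, so this value does not check the deletion. The depth of each library is unknown, since the table holds normalised log2 values and not counts. Libraries with the same number deviated in opposite directions: over the tested genes, the difference KO 1 minus KO 2 had a correlation of -0.91 with WT 1 minus WT 2. The SD of (KO 1 + WT 1) minus (KO 2 + WT 2) was 0.0615. It was 0.141 for KO 1 minus KO 2 and 0.144 for WT 1 minus WT 2. Whether a replicate effect had been removed from the deposited values was not tested. Unless a block is named, the SEs, intervals and p-values given here treat the 4 libraries as independent and do not take this tie into account.

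Changes of these genes were small and more often upward than downward. Of the 35 genes, 16 were called higher in KO and 3 lower at an adjusted p under 0.05 (limma over all tested genes), and 16 were not called. In all, 19 of 35 were called, or 54.3%, where 47.4% of all tested genes were called. The share called higher was 45.7%, against 27.1% of all tested genes, and the share called lower was 8.57%, against 20.3%. The median log2 fold change was 0.075, against 0.015 over all tested genes. In 23 genes both KO libraries lay above both WT libraries and in 5 both lay below, while such separation was found above in 39.9% and below in 33.1% of the tested genes. The sizes were modest: 4 of 35 (11.4%) differed by at least 1.2-fold, against 26.4% of tested genes. The median absolute log2 difference was 0.125, against 0.14. These comparisons are not matched for level: the median log2 level was 10.16 in the 35 genes and 8.8 in all tested genes. With a minimum linear value of 100 in 2 libraries, 9867 genes were tested, with 3215 called higher, 1788 lower and a median change of 0.035. Of the 35 genes, 33 met that minimum, with 16 called higher and 2 lower. The counts by class below are to be read beside the shares of all tested genes. In bulk RNA, a change in RNA per cell and a change in the share of cells that express a gene cannot be told apart.

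These calls rest on 2 libraries per group. With the replicate number as a block, 0 of 13685 genes were called by limma (0%; 4881 had an unadjusted p under 0.05 and the smallest adjusted p was 0.0964), and 7 of the 35 then had an adjusted p under 0.1, as did 16.1% of all tested genes: Npc1, Lamp2, Mcoln1, Hexa, Atp6v1a, Ulk1 and Gabarapl1. Without any library in turn, the sign of the difference stayed the same in each of the 19 called genes. That outcome was fixed in advance, since the KO and WT libraries did not overlap in any of them, so it adds no support to the calls. Scaling moved the counts less: quantile normalization left 12 of the 35 higher and 3 lower, and median centring 13 and 3. Of all 13685 tested genes, 3029 were called higher and 3067 lower under quantile normalization, and 2983 and 3250 under median centring. A correction that removed the trend of the fold changes with transcript length and mean value is called the length correction here. It left 10 of the 35 higher and 4 lower, where 2670 of all 13334 genes with a length were called higher and 2680 lower. It set the median of the 35 to 0.024 and that of all genes to -0.007.

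**Figure D1:**
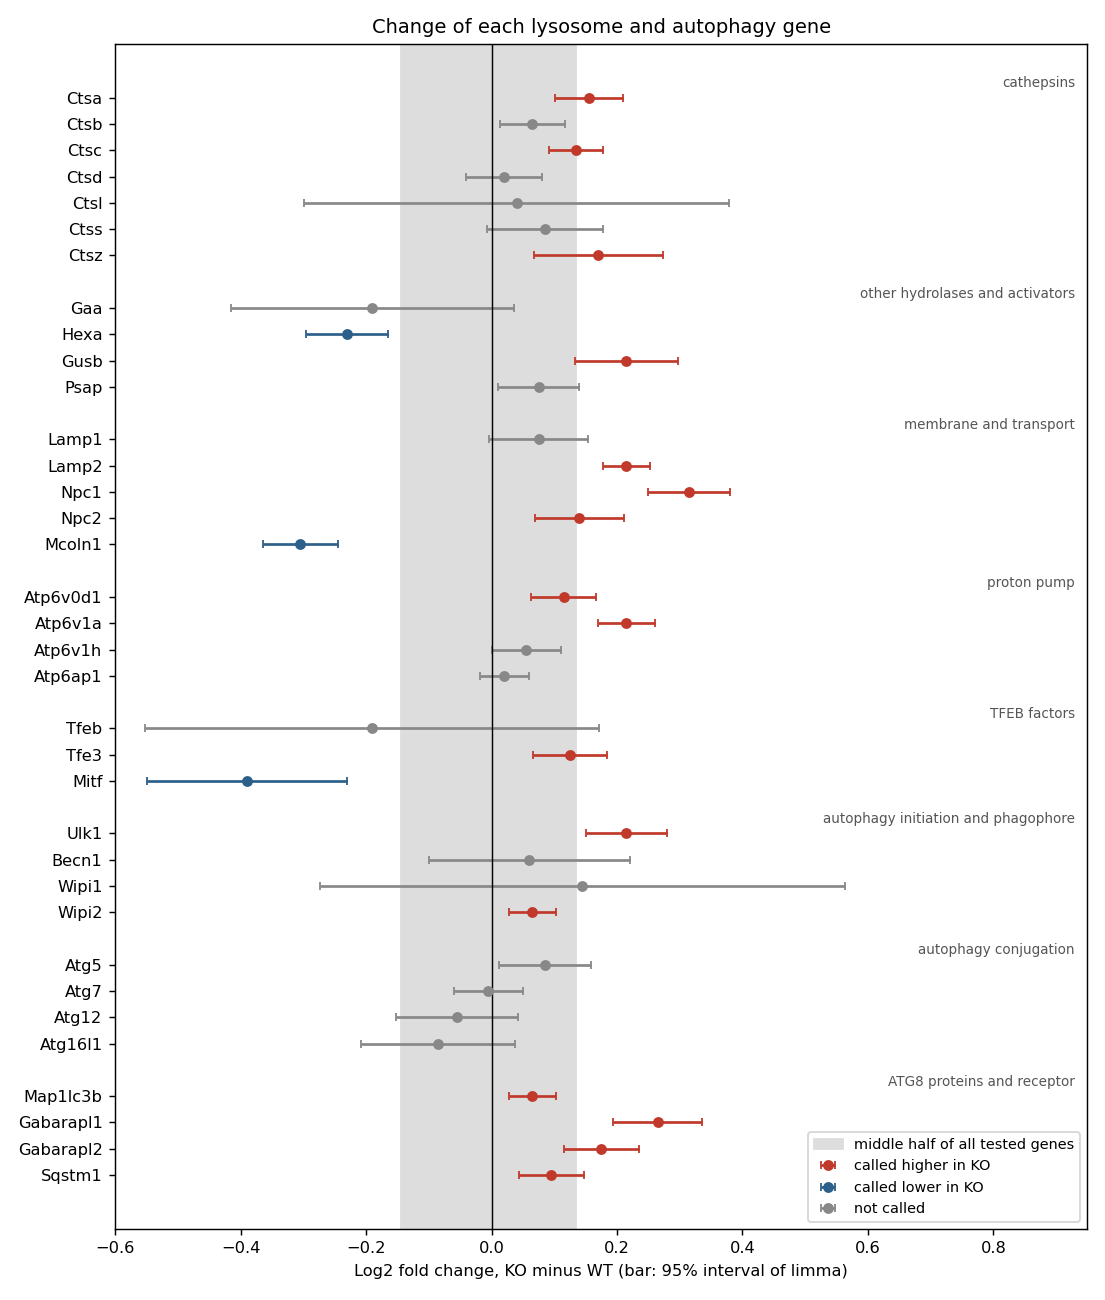
Log2 fold change (KO minus WT) of the 35 genes by class, with 95% intervals from limma, coloured by whether the gene was called higher, called lower or not called; the grey band spans the middle of all tested genes, from the lower to the upper quartile (-0.145 to 0.135). The extremes are Npc1 at 0.315 and Mitf at -0.39, and the intervals of Ctsl, Tfeb and Wipi1 are wide.

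The 3 transcription factors went different ways. Mitf, the family member best known from pigment cells and osteoclasts, had log2 values of 4.84 and 4.9 in KO and of 5.25 and 5.27 in WT. Both KO libraries were below both WT libraries, and Mitf was 1.31-fold lower in KO (log2 fold change -0.39, SE 0.0545, adjusted p = 0.0136). It was also the lowest of the 35 genes per transcript length, at 2.58 in KO and 2.97 in WT (log2 value per kb). Tfe3 had 10.33 and 10.37 in KO and 10.23 and 10.22 in WT. The groups did not overlap, and Tfe3 was 1.09-fold higher in KO (0.125, SE 0.0202, adjusted p = 0.0177; 0.082 with adjusted p = 0.0334 under quantile normalization). Tfeb, the factor that gives the family its name, had 8.82 and 8.61 in KO and 8.78 and 9.03 in WT. WT 1 lay between the KO libraries, so the groups overlapped and Tfeb was not called (-0.19, 95% interval -0.552 to 0.172, adjusted p = 0.283). Mitf lies on chromosome 6 (97807052 to 98021349, plus strand, GRCm38), Tfe3 on chromosome X (7762560 to 7775202, plus strand) and Tfeb on chromosome 17 (47737030 to 47792419, plus strand).

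Sequences that these factors can bind were looked for in promoters, here 250 bases before to 50 bases after each annotated start in RefSeq (GRCm38.p6). Promoters were matched for 29 of the 35 genes. The E-box CACGTG, which reads the same on both strands, was found in those of 10 of the 29 genes (34.5%) and in those of 8.09% of all 27025 genes with a promoter. The longer element TCACGTGA contains the E-box and is also its own reverse complement. It was found in 5 of the 29 genes (17.2%) and in 1.12% of all genes. All genes here include those not tested. Among the 9696 tested genes with a promoter, CACGTG was found in 1137 and TCACGTGA in 220, which are larger shares than among all genes. The stretches below are shown because they carry the elements in genes of several classes that differed in direction, in capitals where they match. Each runs 5′ to 3′ on the gene's own strand.
Lamp1 (chr8:13159074-13159177, plus strand): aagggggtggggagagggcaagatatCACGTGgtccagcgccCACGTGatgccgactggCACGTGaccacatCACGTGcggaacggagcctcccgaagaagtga
Mcoln1 (chr8:3500441-3500486, plus strand): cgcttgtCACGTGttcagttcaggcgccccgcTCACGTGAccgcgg
Ctsa (chr2:164833758-164833786, plus strand): tgTCACGTGAtgcagatgcTCACGTGAcc
Atp6v1a (chr16:44139359-44139416, minus strand): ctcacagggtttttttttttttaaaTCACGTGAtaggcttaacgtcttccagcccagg
Atp6v0d1 (chr8:105566036-105566093, minus strand): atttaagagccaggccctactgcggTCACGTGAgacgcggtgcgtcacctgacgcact
Ctsd (chr7:142387908-142387937, minus strand): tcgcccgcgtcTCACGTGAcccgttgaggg
Gaa (chr11:119267797-119267854, plus strand): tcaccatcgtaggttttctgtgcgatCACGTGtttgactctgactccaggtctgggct

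Genes with these elements shared no direction. Of the 5 with TCACGTGA, Ctsa, Atp6v1a and Atp6v0d1 were called higher in KO, Mcoln1 was called lower, and Ctsd was not called. CACGTG without TCACGTGA was found in Lamp1, where it occurs 4 times in 104 bases, and in Gaa, Ctsl, Atg5 and Atg7, and none of these 5 genes was called. Over the whole table, 24.5% of the 220 tested genes with TCACGTGA in a promoter were called higher and 18.2% lower. Among the 9476 tested genes with a promoter but without it, 29.3% were called higher and 19.9% lower. The median log2 fold change was 0.02 in both sets.

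**Figure D2:**
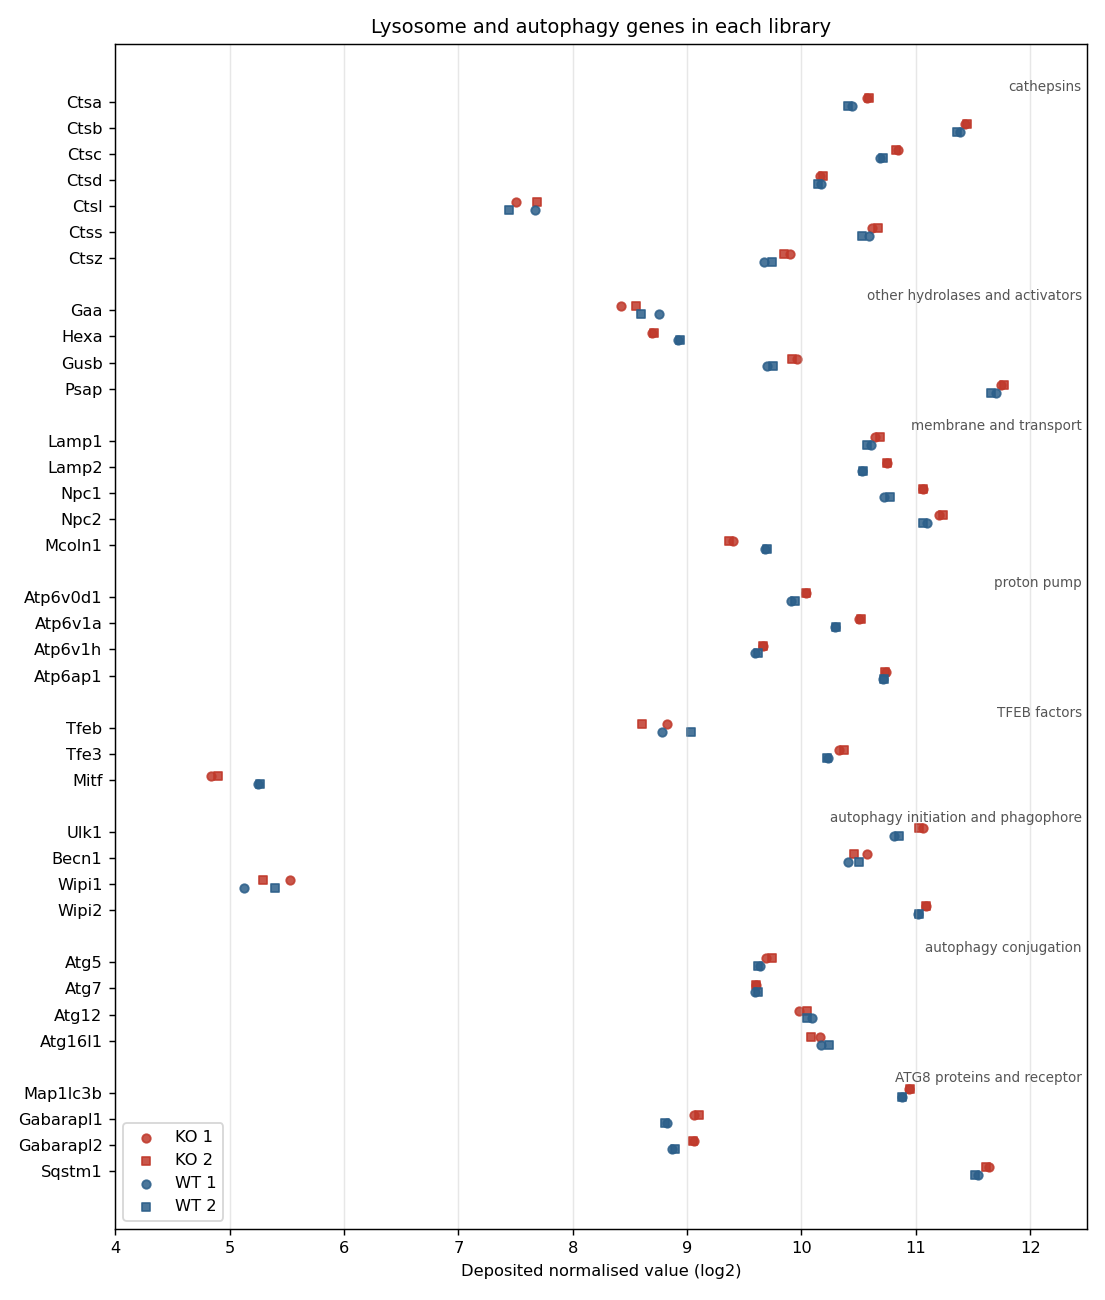
Deposited log2 value (horizontal axis) of each of the 35 genes in each library, KO in red and WT in blue, with circles for replicate 1 and squares for replicate 2. Groups are separated in genes such as Npc1, Lamp2 and Gabarapl1 and overlap in Ctsl, Tfeb and Wipi1, where replicate 1 and replicate 2 lie far apart within a genotype.

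The cathepsins are lysosomal proteases. Of the 7, 3 were called higher and none lower, and the median log2 fold change was 0.085. The deposited KO mean was above the WT mean in all 7, but 3 of these signs turned under alternatives. Ctsd turned to -0.017 under quantile normalization, -0.01 under median centring and -0.075 under the length correction, and Ctss to -0.016 under the last. Ctsl turned to -0.055 without KO 2 and to -0.075 without WT 2. Ctsa (cathepsin A, which also protects lysosomal sialidase and galactosidase) had 10.57 and 10.59 in KO and 10.44 and 10.41 in WT, 1.11-fold higher (0.155, SE 0.0185, adjusted p = 0.0105). Ctsc, the dipeptidyl peptidase that activates granzymes, had 10.84 and 10.83 in KO and 10.69 and 10.71 in WT, 1.1-fold higher (0.135, SE 0.0149, adjusted p = 0.00932). Ctsz, a carboxypeptidase, had 9.9 and 9.85 in KO and 9.67 and 9.74 in WT (0.17, SE 0.0354, adjusted p = 0.0298). In these 3 genes the KO libraries lay above the WT libraries. The change of Ctsc was 0.063 under the length correction (adjusted p = 0.0443). The call of Ctsz was lost with no filter on low values (adjusted p = 0.0704), under quantile normalization (adjusted p = 0.0537) and under the length correction (adjusted p = 0.204).

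Of the other cathepsins, Ctsb, a cysteine protease, and Ctss, which trims the class II invariant chain in antigen-presenting cells, had KO above WT in every library without being called (0.065 with adjusted p = 0.0555, and 0.085 with adjusted p = 0.107). Ctsd, the main aspartic protease, had 10.16 and 10.19 in KO and 10.17 and 10.14 in WT, which overlap. Ctsl, another cysteine protease, had 7.5 and 7.69 in KO and 7.67 and 7.44 in WT. KO 2 and WT 1 were high and KO 1 and WT 2 low, so its difference of 0.04 has an interval of -0.299 to 0.379. Annotated exons of other genes share 34.4% of the exonic bases of Ctsd on the same strand and 26.8% of those of Ctsl on the opposite strand, as they do 17.4% of those of Ctsa, 12.8% of those of Hexa and 17.3% of those of Sqstm1. The use of strand in counting is not given in the sources used here.

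Phagocytes carry many of these proteases. The macrophage and monocyte markers Lyz2, C1qa, C1qb and C1qc were low but passed the filter on low values. Of the 12 markers on that list only Fcgr1 did not, at 2.21 and 2.44 in KO and 2.5 and 2.07 in WT. Lyz2 had 6.5 and 6.69 in KO and 7.03 and 6.38 in WT, with WT 1 the highest and WT 2 the lowest, and the C1q genes too were lowest in WT 2. Of the 11 tested markers, 1 was called, Cd68, at 6.43 and 6.36 in KO and 6.6 and 6.58 in WT. The summed linear level of the 12 was 1970 and 1630 in KO and 1850 and 2050 in WT, most of it Ccr2, which T cells also express. Without Ccr2 the sum was 368 and 395 in KO and 479 and 353 in WT. On the dendritic cell list, Cd74 had 10.46 and 10.61 in KO and 10.4 and 10.15 in WT. H2-Aa had 7.75 and 8.33 in KO and 8.15 and 7.2 in WT, and both genes were highest in KO 2 and lowest in WT 2. Of the 7 tested genes on that list, 1 was called higher (Zbtb46, log2 fold change 0.58) and 1 lower (Xcr1, -0.885). The others were not called, with Siglech (-0.59) and Itgax (-0.28) lower in the KO mean and H2-Ab1 (0.51), H2-Aa (0.365) and Cd74 (0.26) higher. The summed linear level of the dendritic cell list was 2040 and 2430 in KO and 2140 and 1620 in WT, most of it Cd74. The part of phagocytes and dendritic cells in the cathepsin values was not tested.

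Of the other hydrolases and activators, 1 of 4 was called higher and 1 lower. Gusb, beta-glucuronidase, had 9.96 and 9.92 in KO and 9.7 and 9.75 in WT and was 1.16-fold higher (0.215, SE 0.028, adjusted p = 0.0121). Hexa, the alpha chain of beta-hexosaminidase, had 8.69 and 8.71 in KO and 8.92 and 8.94 in WT and was 1.17-fold lower (-0.23, SE 0.0224, adjusted p = 0.00807). These opposite changes were each several times the gap between replicates. Gaa, the glycogen-degrading alpha-glucosidase, had 8.42 and 8.55 in KO and 8.75 and 8.6 in WT, below in both KO libraries but not called (-0.19, SE 0.0775, adjusted p = 0.127). Psap, the precursor of the saposins that help degrade sphingolipids, was the most abundant of the 35 genes per transcript length, at 10.35 in KO and 10.27 in WT (log2 value per kb), and was not called (0.075, adjusted p = 0.0643; -0.024 under the length correction).

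Next in the order of levels per kb came Ctss at 10.21 in KO and 10.12 in WT and Sqstm1 at 10.21 in KO and 10.11 in WT, which differ from each other by less than the KO to WT difference of either gene. The lowest were Mitf, Wipi1 (3.67 in KO and 3.53 in WT), Ctsl (4.97 in KO and 4.93 in WT) and Gaa (6.62 in KO and 6.81 in WT). The remaining 28 genes lay between these ends, from 7.39 for Atp6v1h to 9.6 for Atp6ap1 in KO and from 7.33 for Atp6v1h to 9.58 for Atp6ap1 in WT. Lengths are those of the longest annotated transcript, so the order is approximate.

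Genes of the lysosomal membrane and of lipid transport held the largest upward change among the 35 genes and one of the largest downward. Npc1, the membrane protein that exports cholesterol from lysosomes, had 11.06 and 11.06 in KO and 10.72 and 10.77 in WT and was 1.24-fold higher (0.315, SE 0.0223, adjusted p = 0.00608). Npc2, the soluble protein that hands cholesterol to it, had 11.2 and 11.24 in KO and 11.1 and 11.06 in WT and was 1.1-fold higher (0.14, SE 0.0243, adjusted p = 0.0203). Both genes of this export route were thus separated by genotype, though the call of Npc2 was lost under the length correction (0.063, adjusted p = 0.125). Lamp2, an abundant glycoprotein of the lysosomal membrane with a role in chaperone-mediated autophagy and vesicle fusion, had 10.75 in both KO libraries and 10.53 and 10.54 in WT (0.215, SE 0.013, adjusted p = 0.0058). Its relative Lamp1 had 10.64 and 10.69 in KO and 10.61 and 10.57 in WT and was not called (0.075, 95% interval -0.004 to 0.154, adjusted p = 0.099), and its difference turned to -0.025 under the length correction.

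Mcoln1, the lysosomal calcium channel mucolipin 1 (TRPML1), went down. It had 9.4 and 9.37 in KO and 9.68 and 9.7 in WT and was 1.24-fold lower (-0.305, SE 0.0206, adjusted p = 0.00597). Of its relatives, Mcoln2 had 7.22 and 7.24 in KO and 6.14 and 6.07 in WT, 2.18-fold higher (1.125, SE 0.0483, adjusted p = 0.00505). Mcoln3, picked after its values were seen, had 6.21 and 6.36 in KO and 6.8 and 6.76 in WT, 1.41-fold lower (-0.495, SE 0.0712, adjusted p = 0.0143). The 3 mucolipin genes were thus each separated by genotype, with 1 higher and 2 lower, and kept these signs and calls under quantile normalization, median centring and the length correction. Mcoln1 lies on chromosome 8 (3500457 to 3515232, plus strand) and Mcoln2 on chromosome 3 (146149833 to 146195513, plus strand).

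Among the 4 proton pump genes, 2 were called higher and none lower, and in all 4 the deposited KO values lay above WT. Over all tested genes, 27.1% were called higher, and both KO libraries lay above both WT libraries in 39.9%. Atp6v1a, the catalytic subunit, had 10.5 and 10.52 in KO and 10.29 and 10.3 in WT and was 1.16-fold higher (0.215, SE 0.0153, adjusted p = 0.00608). Atp6v0d1, which joins the sectors, had 10.04 in both KO libraries and 9.91 and 9.94 in WT (0.115, SE 0.0179, adjusted p = 0.0163), a difference that shrank to 0.012 under the length correction. Atp6v1h, a regulatory subunit of V1, and Atp6ap1, an accessory protein, were not called (0.055 with adjusted p = 0.0892, and 0.02 with adjusted p = 0.295). Atp6ap1 turned to -0.015 under quantile normalization, -0.01 under median centring and -0.083 under the length correction, where it was called lower (adjusted p = 0.0211).

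With the 13 other measured pump genes added, most V1 genes were called higher and 3 V0 genes lower. This grouping into sectors was made after the values were seen. Of all tested genes, 27.1% were called higher and 20.3% lower. Of 8 V1 genes, 6 were called higher and none lower, with log2 fold changes of 0.04 to 0.215. They include Atp6v1c1, at 10.1 in both KO libraries against 9.93 and 9.94 in WT (0.165, adjusted p = 0.00701), and Atp6v1e1, at 10.03 and 10.02 in KO against 9.89 and 9.9 in WT (0.13, adjusted p = 0.00991). Of 7 V0 genes, 1 was called higher (Atp6v0d1) and 3 lower. Atp6v0a1, an isoform of the large membrane subunit, had 7.36 and 7.39 in KO and 8.04 and 8.09 in WT and was 1.61-fold lower (-0.69, SE 0.0368, adjusted p = 0.00551). Atp6v0c, the main subunit of the proton-carrying ring, had 7.85 and 7.75 in KO and 8.27 and 8.33 in WT and was 1.41-fold lower (-0.5, SE 0.051, adjusted p = 0.00844). Atp6v0b, another ring subunit, had 9.05 and 9.03 in KO and 9.21 and 9.19 in WT (-0.16, adjusted p = 0.012). The isoform genes Atp6v0a2 (-0.06) and Tcirg1 (-0.15) were not called. Under the length correction, 5 of the V1 genes were called higher, with Atp6v1b2 at -0.044 and Atp6v1e1 at 0.069, and 4 of the V0 genes lower, with Atp6v0b at -0.247, and none higher. The difference between sectors was not tested.

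**Figure D3:**
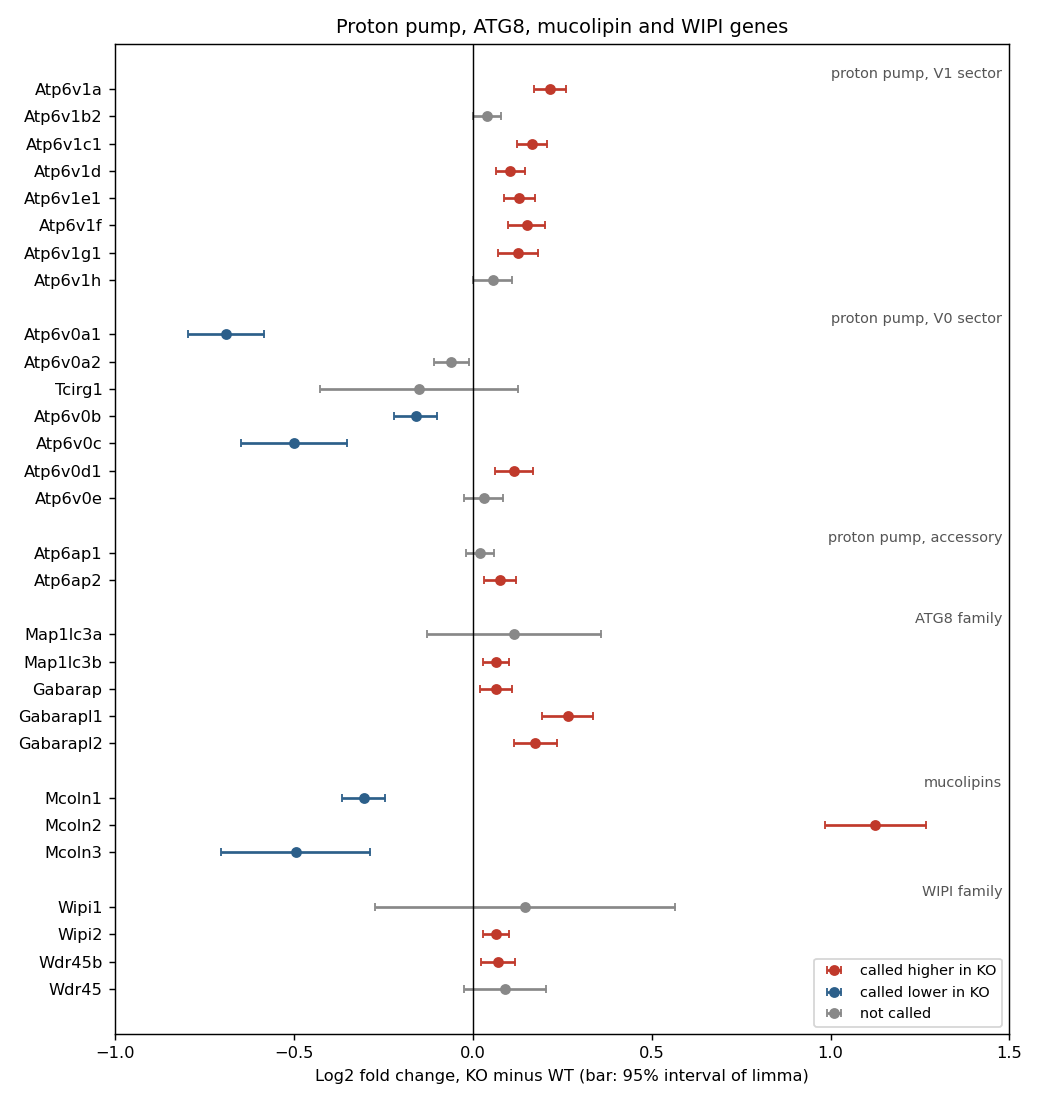
Log2 fold change (KO minus WT) with 95% intervals from limma for genes of the V-ATPase by sector, the ATG8 family, the mucolipins and the WIPI family. All 8 V1 genes lie right of 0 (0.04 to 0.215; under quantile normalization and the length correction Atp6v1b2 lies at 0 and -0.044), while the V0 genes reach from -0.69 to 0.115, and the mucolipins span -0.495 to 1.125.

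Of the genes that start autophagy, 2 of 4 were called higher. Ulk1, the initiating kinase, had 11.06 and 11.03 in KO and 10.81 and 10.85 in WT and was 1.16-fold higher (0.215, SE 0.0223, adjusted p = 0.00862). Wipi2, which binds phosphatidylinositol 3-phosphate on the growing membrane and recruits ATG16L1, had 11.09 in both KO libraries and 11.02 and 11.03 in WT (0.065, SE 0.0126, adjusted p = 0.0253). The KO libraries lay above WT in both genes. The call of Wipi2 was lost under median centring (adjusted p = 0.1), quantile normalization (0.342) and the length correction (0.0717). Becn1, the scaffold of the lipid kinase complex, had 10.57 and 10.46 in KO and 10.41 and 10.5 in WT. Wipi1, a relative of Wipi2, had 5.53 and 5.29 in KO and 5.13 and 5.4 in WT. Both overlapped between the groups and were not called (adjusted p = 0.426 for Becn1 and 0.461 for Wipi1). Exons of genes on the opposite strand share 43.9% of the exonic bases of Becn1.

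None of the 4 conjugation genes was called by limma. Atg5 had 9.69 and 9.74 in KO and 9.64 and 9.62 in WT (0.085, adjusted p = 0.0646), above in both KO libraries. Atg16l1, which sets where conjugation takes place, had 10.16 and 10.08 in KO and 10.17 and 10.24 in WT (-0.085, adjusted p = 0.182), below in both. Atg7, the enzyme that activates ATG12 and ATG8 proteins, had 9.6 in both KO libraries and 9.59 and 9.62 in WT, a difference of -0.005 with an interval of -0.06 to 0.05 that turned to 0.01 without WT 2. Atg12, the ubiquitin-like partner of ATG5, had 9.98 and 10.05 in KO and 10.09 and 10.05 in WT (-0.055, 95% interval -0.152 to 0.042). The intervals of these 4 genes reach from -0.208 to 0.158.

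The ATG8 proteins, which coat the autophagosome membrane, and the cargo receptor were all called higher. Gabarapl1 had 9.06 and 9.1 in KO and 8.82 and 8.81 in WT and was 1.2-fold higher (0.265, SE 0.0244, adjusted p = 0.00754). Gabarapl2 had 9.06 and 9.05 in KO and 8.87 and 8.89 in WT and was 1.13-fold higher (0.175, SE 0.0205, adjusted p = 0.0102). Both were separated by more than the gap between replicates, and the change of Gabarapl2 was 0.102 under the length correction (adjusted p = 0.0324). Map1lc3b, which encodes LC3B, had 10.94 and 10.95 in KO and 10.88 in both WT libraries (0.065, SE 0.0127, adjusted p = 0.0258). Sqstm1, which encodes the receptor p62 that links ubiquitinated cargo to ATG8 proteins, had 11.64 and 11.61 in KO and 11.54 and 11.52 in WT (0.095, SE 0.0179, adjusted p = 0.0242). The changes of Map1lc3b and Sqstm1 were under 1.1-fold. Their calls were lost under median centring (adjusted p = 0.102 and 0.0568) and quantile normalization (0.171 and 0.136). Both calls were also lost under the length correction, where Map1lc3b stood at 0.022 (adjusted p = 0.246) and Sqstm1 at -0.004. Gabarapl1 lies on chromosome 6 (129533160 to 129542346, plus strand), and 28.3% of its exonic bases are shared with exons on the opposite strand. Of the remaining ATG8 genes, Gabarap, picked after its values were seen, had 10.48 and 10.47 in KO and 10.42 and 10.4 in WT (0.065, adjusted p = 0.0389), a sign that turned to -0.037 after that correction, and Map1lc3a overlapped between the groups (0.115, adjusted p = 0.325).

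A wider set of 142 other genes of the same pathways showed no upward balance. Of 141 tested, 31 (22%) were called higher and 33 (23.4%) were lower, and their median change was 0.01 on the log2 scale. Under quantile normalization the counts were 22 higher and 40 lower, under median centring 25 and 40, and under the length correction 17 and 34. With the 35 genes added and the deposited scaling kept, 47.2% of 176 were called, 26.7% higher and 20.5% lower. These shares are close to the 47.4%, 27.1% and 20.3% of all tested genes in the same fit. The shares of the 176 under the other settings were not compared. The difference between the 35 genes and the wider set was not tested.

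**Figure D4:**
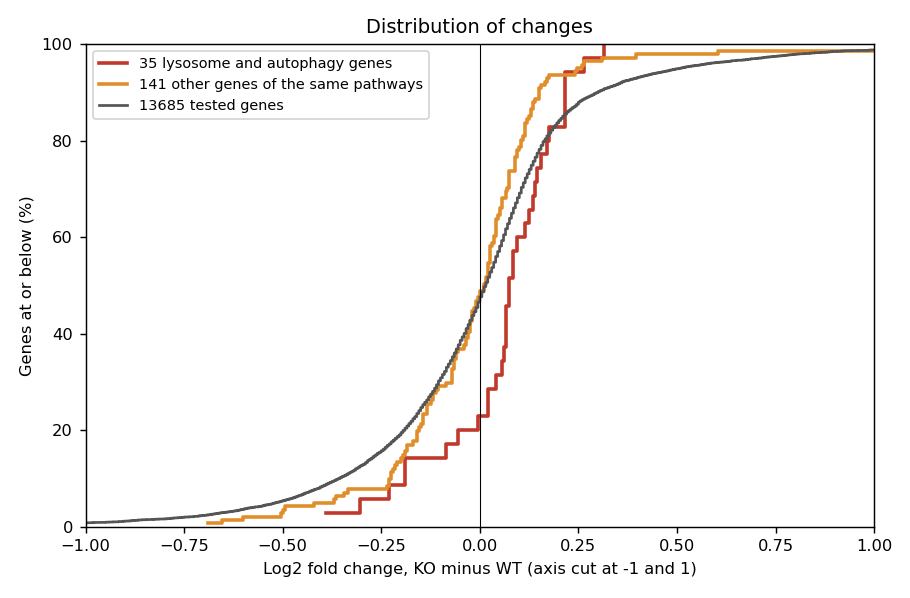
Cumulative share of genes (vertical axis, percent) at or below each log2 fold change (KO minus WT) for the 35 genes, the 141 other tested genes of the same pathways and all 13685 tested genes. The curve of the 35 genes lies to the right of the others around 0 (median 0.075, against 0.01 and 0.015), and both pathway curves are steeper than that of all tested genes.

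Of 39 other lysosomal hydrolase genes tested, 8 were called higher and 11 lower. Scpep1, a serine carboxypeptidase, had 9.41 and 9.36 in KO and 8.76 and 8.8 in WT and was 1.52-fold higher (0.605, SE 0.03, adjusted p = 0.00545). Gm2a, the activator with which beta-hexosaminidase degrades the ganglioside GM2, had 10.94 and 10.96 in KO and 10.69 in both WT libraries (0.26, adjusted p = 0.0056), while Hexa, whose product it assists, was lower. Ctsw, a cathepsin of cytotoxic lymphocytes, had 9.36 and 9.37 in KO and 9.86 and 9.88 in WT and was 1.42-fold lower (-0.505, SE 0.0174, adjusted p = 0.00434). Idua, which degrades heparan and dermatan sulfate, had 8.35 in both KO libraries and 8.72 in both WT libraries (-0.37, adjusted p = 0.0058). The largest fold change in the wider set, picked after the values were seen, was that of Ctsf, a cysteine protease, with 6.5 and 6.77 in KO and 5.4 and 5.06 in WT, 2.65-fold higher (1.405, SE 0.169, adjusted p = 0.0106).

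Of 25 other genes of the lysosomal membrane, 4 were called higher and 9 lower. Besides Mcoln2, those with the smallest p were lower: Cln3, mutated in a juvenile lysosomal storage disease, had 9.21 and 9.15 in KO and 9.59 and 9.61 in WT (-0.42, adjusted p = 0.00601). Abcb9, a lysosomal peptide transporter, had 9.55 and 9.56 in KO and 9.79 in both WT libraries (-0.235, adjusted p = 0.00591), and the lipid transporter gene Abca2 had 11.56 in both KO libraries and 11.74 and 11.75 in WT (-0.185, adjusted p = 0.00597). On a list of 10 genes for sorting to lysosomes, which also holds the protease gene Sppl2a, 2 were called higher and 5 lower. Igf2r, the large mannose 6-phosphate receptor, had 11.44 and 11.55 in KO and 11.87 and 11.85 in WT and was 1.29-fold lower (-0.365, adjusted p = 0.0105). Gnptab, which begins the mannose 6-phosphate tag, had 9.8 and 9.79 in KO and 10 and 10.04 in WT (-0.225, adjusted p = 0.00763), and the adaptor gene Gga3 had 10.36 in both KO libraries and 10.55 in both WT libraries (-0.19, adjusted p = 0.00597). Sppl2a, an intramembrane protease of lysosomes on the same list, was higher (0.115, adjusted p = 0.0115; 0.075 under quantile normalization).

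Of 33 other autophagy genes, 6 were called higher and 2 lower, which leaves 25 not called. Over all tested genes, 27.1% were called higher and 20.3% lower. Atg13 and Atg101, partners of ULK1, were higher by 0.15 and 0.11 (adjusted p = 0.0135 and 0.0186), and the cargo receptor gene Tax1bp1 by 0.135 (adjusted p = 0.0125). The protease gene Atg4c, at 3.91 and 3.95 in KO and 4.27 and 4.28 in WT, was lower (-0.345, adjusted p = 0.0159; -0.218 with a pseudocount of 10). Of 14 genes for fusion of autophagosomes with lysosomes, 3 were called higher and 1 lower. The SNARE gene Stx17 was lower (-0.23, adjusted p = 0.0098), whereas the GTPase gene Rab7 (0.115, adjusted p = 0.0093) and the SNARE genes Vamp7 (0.155, adjusted p = 0.0163) and Vamp8 (0.115, adjusted p = 0.0213) were higher. Among 7 regulators of TFEB or of its targets, 2 were called higher and 2 lower. Zkscan3, a repressor of autophagy genes, had 10.2 and 10.19 in KO and 10.43 and 10.42 in WT (-0.23, adjusted p = 0.0058), and Flcn, whose product folliculin helps mTORC1 keep TFEB in the cytosol, was lower by a smaller step (-0.105, adjusted p = 0.0214). Rragc, a Rag GTPase that brings TFEB to mTORC1, and Ppp3cb, a catalytic chain of the phosphatase calcineurin, were higher (0.1 with adjusted p = 0.0135, and 0.095 with adjusted p = 0.0122). Under the length correction, the calls of Rab7, Vamp8, Atg101, Tax1bp1, Rragc and Ppp3cb were lost, and Atg13 stood at 0.095. The calls of Atg101 and Ppp3cb were also lost under quantile normalization (adjusted p = 0.0869 for Atg101 and 0.0617 for Ppp3cb).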

How the data were processed

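The 4 libraries, 2 KO and 2 WT, were made from Treg poly-A RNA with a TruSeq kit, per the labels' protocols. The deposited log2 values are counts that the authors normalised, per the file headers and name; STAR, DESeq2 and mm10 are named in the submitters' processing notes, with roles, versions, the annotation and the exact transform not given in the sources used here. Nothing says that libraries came from separate mice, so p-values measure the spread between these libraries. Genes with a linear value of at least 10 in at least 2 libraries were tested with limma 3.58.1 in R 4.3.3. The linear value is 2 to the power of the deposited value. The fit had genotype as the only term and a variance prior following the mean, two-sided, with Benjamini-Hochberg over all 13685. It was run on simulated data with independent noise in each library. Same-numbered libraries here deviated in opposite directions, so the simulation does not show the error rate of these calls. Called means an adjusted p under 0.05; SEs and intervals are limma's. GENCODE M21 (GRCm38), matched by symbol, gave positions and, for 97.4% of tested genes, transcript lengths. The length correction subtracted 1 joint loess trend on length and mean value.

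Library depth is unknown. The 35 genes, the 142 wider genes and the marker lists were chosen with earlier results of these data known. All 35 are reported; of each wider list the up to 4 called genes with the smallest p are named, with exceptions marked. Of the marker lists, T cell markers had 0 of 6 called, Treg markers 3 higher and 1 lower of 5, macrophage and monocyte 1 lower of 11 tested, dendritic cell 1 higher and 1 lower of 7 tested, B cell 1 lower of 6, CD8 T and NK cell 1 lower of 5 tested, and neutrophil 0 of 2 tested. The T cell count of 0 is limma's.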

Additional observations from a re-analysis of the deposited data

How the results depend on the processing

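Counts of called genes in the order all tested genes, genes of the 35 higher, genes of the 35 lower, wider genes higher and wider genes lower were 6481, 16, 3, 31 and 33. With the replicate number as a block (replicate block), limma called 0, 0, 0, 0 and 0, with 4881 genes, 17 genes of the 35 and 52 wider genes at an unadjusted p under 0.05; it leaves 1 residual degree of freedom. Leaving out each library gave 0 to 0 for each of the 5 counts, with 5225 to 5669 genes at an unadjusted p under 0.05; the lone library of a genotype is then assumed to vary like the other 2. With a limit of at least 1.2-fold, the counts were 732 (5.35% of tested genes), 0, 0, 3 and 3. Under the length correction, genes of the 35 called higher were 10 and wider genes called higher 17, beside 2670 of all 13334 genes with a length. The cause was not tested. With the crossed pairing (KO 1 with WT 2), added after seeing the data, they were 9728, 24, 6, 50 and 49. This pairing joins libraries that deviated in the same direction over the tested genes, so its larger counts add no support to the calls. No label says that a replicate number marks a shared mouse, litter or day. Median centring, quantile normalization, a robust or an untrended variance prior, adding a pseudocount of 10, and a minimum of 100 or no filter kept each of the 5 counts within 1.5 times.

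Under the length correction, 6 of the 35 log2 fold changes and 19 of 140 in the wider set turned sign. Those of the 35 were Atp6ap1 at -0.083, Sqstm1 at -0.004, Psap at -0.024, Lamp1 at -0.025, Ctsd at -0.075 and Ctss at -0.016, of which Atp6ap1 was called there (adjusted p = 0.0211). Called wider genes that turned were M6pr at -0.037, Atp6ap2 at -0.016, Wdr45b at -0.005 and Gabarap at -0.037. Of the 35, Atp6ap1 and Ctsd also turned under quantile normalization and median centring, Ctsl without KO 2 or WT 2, and Atg7 without WT 2. Library depth is unknown, so differences of low genes such as Mitf and Wipi1 have no counting interval.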
